A study of Mus musculus with 15 samples.

Results

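Libraries A2 and C2 are 2 of the 6 pools of mouse 2-cell embryos with values here, of 15 samples in the series. They were chosen on the values themselves: both lie apart from the other 4 libraries (A1, B1, B2 and C1) on principal component 1 of log2(FPKM + 1), where FPKM is the number of fragments scaled by gene length and library size. The description covers the 4842 of 21963 protein-coding genes whose mean FPKM reached 5 across the 6 libraries. Since these values chose the libraries, every difference between A2 and C2 and the other 4 is a description, with no test. The gene classes followed are maternal transcripts, transcripts of the 2-cell programme (the zygotic class), mitochondrially encoded mRNAs and ribosomal protein mRNAs.

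Each library came from a pool of 5 embryos of the ICR strain collected at the 2-cell stage, 32 hours after insemination. The study injected mRNA for nuclear actin, either wild type or the R62D mutant, which does not polymerise, at 2 hours after insemination, each HA-tagged and carrying a nuclear localisation signal, and kept non-injected embryos as controls. Titles and annotation divide these 6 libraries into the same 3 pairs but contradict each other on what was injected. By title, the embryos of pair A received Wt, those of pair B R62D, and those of pair C nothing (Non-injected control). By the annotation of the mRNA, pair A was Non-injected, pair B received actinWT-HA-NLS and pair C received actinR62D-HA-NLS. A2 and C2 therefore belong to different pairs under either reading, and both carry the replicate number 2, as does B2. Not analysed here are the 9 samples that combine Exportin 6 with R62D, carry the G15S mutant or serve as their own non-injected controls. A pool of embryos is a mixture, and a value from it cannot tell whether a few embryos or all of them differ.

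At fertilisation the embryo carries only RNA that the oocyte made. In the mouse, much of this maternal RNA is degraded by the end of the 2-cell stage, while the embryo's own genome is switched on, with a short burst of 2-cell genes such as the Zscan4 cluster and the eIF1A-like genes. Mitochondrial mRNAs come from the many mitochondria inherited from the oocyte, and ribosomal protein mRNAs are housekeeping transcripts that the new genome makes in growing amounts.

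Between 907210 (C2) and 1555431 (C1) assigned reads lay behind the libraries, and A2 had 1117950, so depth overlapped between A2 and C2 and the other 4. A2 and C2 had 12485 and 12279 genes at 1 FPKM or more, against 13239 to 13845 in the other 4. At the depth of the shallowest library, the expected number of genes with a read was 16487 in A2 and 16357 in C2, against 17145 to 17805. The most abundant 100 genes took 35.0% of all reads in A2, 32.6% in C2 and 26.8% to 32.5% in the rest. The share of lincRNA reads was 0.934% and 0.898%, against 1.08% to 1.31%. Blood markers summed to 15.4 FPKM in A2 and 11.9 FPKM in C2, with 3 and 5 of 12 markers above 0, against 37.3 to 86.3 FPKM with 4 or 5 markers above 0. The alpha-globin genes Hba-a1 and Hba-a2 made most of that sum in each library, while beta-globin (Hbb-bs, Hbb-bt) was listed at 0 in every library. The 22 markers of cumulus and granulosa cells summed to 12.7 to 16.6 FPKM in A2 and C2 and 10.1 to 18.2 FPKM in the other 4, with Foxl2, Fshr, Lhcgr, Inha and Ptx3 at 0 throughout. Nr5a2 made most of that sum in each library, at 14.0 FPKM in A2, 10.3 FPKM in C2 and 7.80 to 12.8 FPKM in the other 4. The 16 sperm markers summed to 34.2 to 40.9 FPKM against 34.8 to 55.6 FPKM, mostly from Ldhc, with Prm1, Odf1 and Smcp at 0 throughout. The 10 markers of the 2-cell embryo summed to 9957 FPKM (A2) and 10564 FPKM (C2), within the range of 8845 to 11829 FPKM of the other 4. Dppa3 made most of that sum in each library, at 8570 FPKM in A2 and 8941 FPKM in C2, against 5727 to 8842 FPKM. Among the remaining markers, Gm2016, Btg4, Zscan4d and Zfp352 were below the other 4 in A2 and C2. Obox3, Tcstv1, Tcstv3, Zscan4c and Zar1 overlapped, so the level sum does not describe the single markers. The part of depth, gene detection or blood RNA in the results below was not tested.

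Principal component 1 held 34.3% of the variance of the 4842 genes. A2 scored 26.3 and C2 scored 22.7 on it, while A1 scored -8.87, B2 -11.2, B1 -11.3 and C1 -17.7. The gap between C2 and A1 was 71.8% of the whole range of scores. It was 72.2% when all members of the 4 classes were left out, so the order did not need these classes. Without A2 the gap shrank to 38.4%, and without C2 it was 67.5%. Component 2, with 24.0% of the variance, ran from A1 (-20.7) to B2 (27.8) and placed A2 (4.74) and C2 (-3.89) near the middle.

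**Figure D1:**
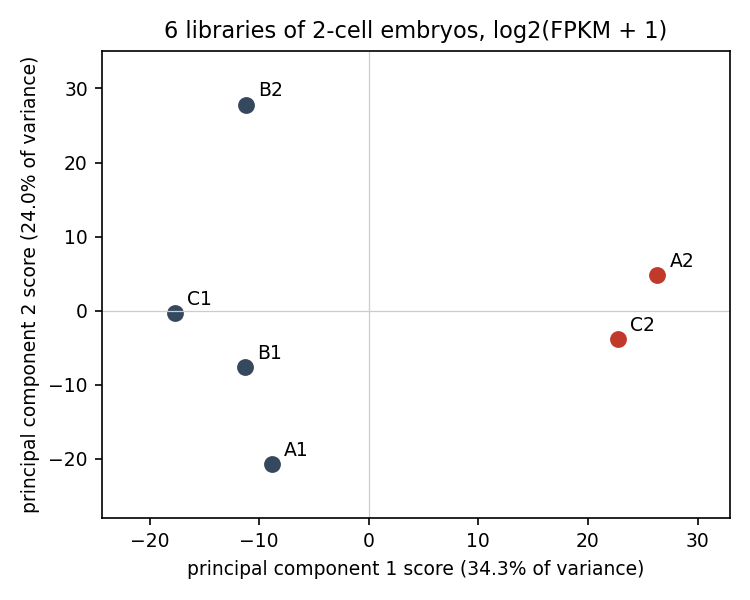
Scores of the 6 libraries on principal component 1 (horizontal) and 2 (vertical) of log2(FPKM + 1) over 4842 genes, in arbitrary units; red points are A2 and C2, dark points the other 4. A2 (26.3) and C2 (22.7) lie to the right of all others, whose highest score is -8.87, and B2 stands alone at the top (27.8).

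In 427 genes, 8.82% of those described, both A2 and C2 were above all of the other 4 libraries, and in 789 genes, 16.3%, both were below. These shares are the background for every count of class members below, and nothing is read from them, since the libraries were chosen on these genes. Of the 789 lower genes, 238 lay at least 1 log2 unit below on average, while 12 of the 427 lay at least 1 unit above. The filter favours lower genes: 460 genes averaged under 5 FPKM in A2 and C2 and passed through the other 4, and 58 the reverse. Nothing is therefore read from this asymmetry. The higher genes were the more abundant, with a median mean level of 40.3 FPKM, against 15.2 FPKM for the lower genes and 16.9 FPKM for all genes described. Over all genes the median difference, written here as the mean log2(FPKM + 1) of A2 and C2 minus the mean of the other 4, was -0.10. It was -0.19 in the 1614 genes with the lowest mean level, -0.15 in the middle 1614 and 0.003 in the 1614 with the highest. FPKM are shares of a library, so this balance depends on the scaling: after scaling the libraries to equal medians the counts were 844 above and 486 below with an all-gene median of 0.08, and after quantile normalization 688 above and 489 below with a median of 0.04. Class medians are therefore given with their distance from the all-gene median. Of the separated genes, 376 of 427 (88.1%) and 738 of 789 (93.5%) belonged to none of the 4 classes, so the classes describe a small part of the split.

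**Figure D2:**
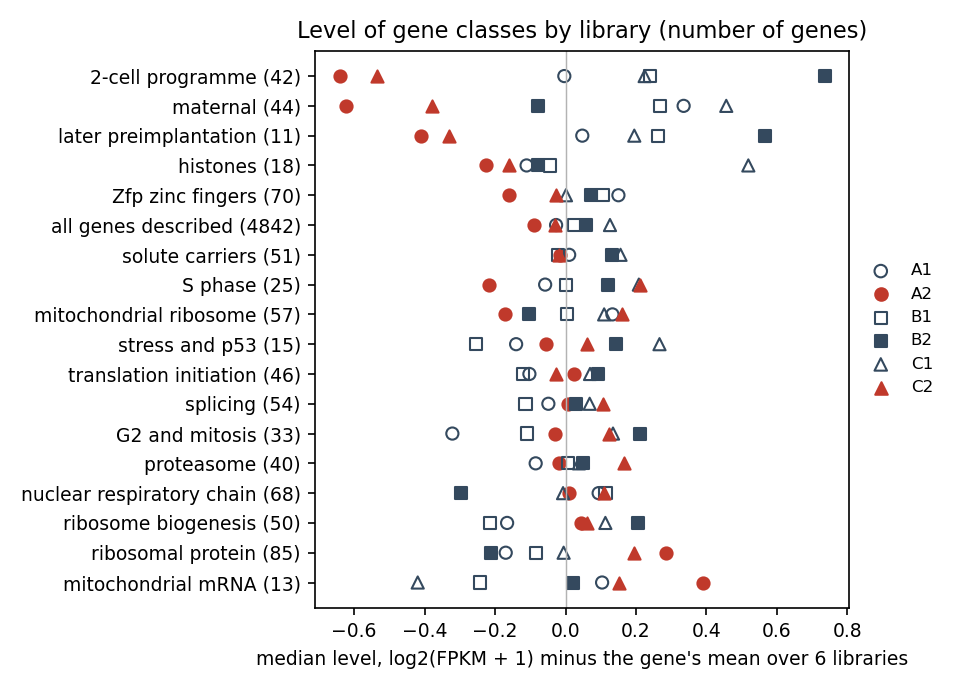
Median level of each gene class in each library (horizontal, log2(FPKM + 1) minus the gene's mean over the 6 libraries), with the number of genes in brackets; circles, squares and triangles are pairs A, B and C, filled for replicate 2, and A2 and C2 are red. Both red points lie left of all others for the 2-cell programme, maternal and later preimplantation classes, for histones and for Zfp zinc fingers. The same holds narrowly for all genes described, with C2 at -0.029 and A1 at -0.027. Both lie right of all others for ribosomal protein and mitochondrial mRNAs.

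Maternal transcripts were lower in A2 and C2. In pooled embryos, fewer cells that hold a transcript and less of it per cell cannot be told apart. Of the 63 genes listed, 44 passed the filter of 5 FPKM. Their median level, relative to each gene's mean over the 6 libraries, was -0.62 in A2 and -0.38 in C2, against 0.34 in A1, 0.27 in B1, -0.08 in B2 and 0.46 in C1. A2 was lowest, C2 next, and B2 lay between C2 and the remaining 3 libraries. The median difference was -0.85, which is -0.75 relative to all genes. Of the 44 genes, 5, with Kpna7 and Zp1 among them, averaged under 5 FPKM in A2 and C2 and passed only through the other 4. These 5 remain in the class medians and in the counts that follow, which therefore lean towards lower values. In 28 of the 44 (63.6%) both A2 and C2 were below all of the other 4, in 0 both were above, and 16 overlapped. The median was -0.64 without A2 and -1.01 without C2.

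The growth factors that the oocyte secretes were among the lowest. Gdf9 (chromosome 11, 53431023 to 53437904, mm10), which drives growth of the surrounding follicle cells, measured 12.8 FPKM in A2 and 5.70 FPKM in C2, against 30.6 in A1, 27.2 in B1, 23.1 in B2 and 37.7 in C1. Its partner Bmp15 (chromosome X, 6314107 to 6320721) measured 47.4 FPKM in A2 and 41.4 FPKM in C2, against 91.8 in A1, 138 in B1, 90.00 in B2 and 124 in C1. For both genes A2 and C2 lay below the whole range of the other 4, with differences of -1.65 for Gdf9 and -1.28 for Bmp15. The egg coat genes differed in direction. Zp1, which links the filaments of the zona pellucida, measured 2.26 FPKM in A2 and 2.23 FPKM in C2, against 7.07 in A1, 3.59 in B1, 9.30 in B2 and 9.09 in C1 (difference -1.28), and Zp2, a sperm-binding coat protein, 8.21 FPKM in A2 and 11.3 FPKM in C2, against 19.1 in A1, 14.8 in B1, 11.98 in B2 and 12.04 in C1 (-0.51). Zp3, the other main coat protein, measured 142 FPKM in A2 and 84.1 FPKM in C2, against 95.98 in A1, 64.8 in B1, 92.4 in B2 and 69.00 in C1, a difference of 0.46. A2 was the highest library for Zp3 and C2 lay inside the range of the others. The secreted oocyte proteins Oosp1, Oosp2 and Oosp3 had differences of -1.17, -0.75 and -0.88, and Oosp1 and Oosp3 did not overlap.

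Wee2 (chromosome 6, 40439088 to 40466813), the oocyte kinase that holds cyclin-dependent kinase inactive, measured 38.5 FPKM in A2 and 49.1 FPKM in C2, against 99.7 in A1, 120.2 in B1, 92.2 in B2 and 121 in C1, a difference of -1.29. Btg4 (chromosome 9, 51060901 to 51119875), the adapter that recruits the deadenylase to maternal mRNAs, measured 174 FPKM in A2 and 253 FPKM in C2, against 437 in A1, 433 in B1, 295 in B2 and 652 in C1, a difference of -1.06. Both genes were below the range of the other 4, and for Btg4 the nearest other library was B2. Cnot6l, a catalytic subunit of that deadenylase, measured 14.2 FPKM in A2 and 15.7 in C2, compared with 21.9 to 30.1 in the other 4 (-0.72). Spin1, a chromatin reader needed for meiotic resumption, measured 193 FPKM in A2 and 273 in C2, compared with 308 to 625 in the other 4 (-0.97), and Dazl, a germ-cell translation regulator, 16.4 FPKM in A2 and 25.5 in C2, compared with 29.2 to 53.2 in the other 4 (-1.03). Tcl1, a coactivator of the kinase Akt, measured 320.0 FPKM in A2 and 848 FPKM in C2, against 1988 in A1, 705 in B1, 449 in B2 and 2009 in C1. A2 was lowest for Tcl1, while C2 lay above B1 and B2, so the groups overlapped. Maternal genes other than the leading 6 (Gdf9, Kpna7, Wee2, Bmp15, Zp1 and Npm2) and Zp3 were picked for their roles after their values were seen.

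Npm2 (chromosome 14, 70647302 to 70659244), which decondenses sperm chromatin, measured 76.8 FPKM in A2 and 38.3 FPKM in C2, against 161 in A1, 147 in B1, 99.4 in B2 and 119 in C1, a difference of -1.24. H1foo, the oocyte linker histone, measured 15.6 FPKM in A2 and 16.5 in C2, compared with 18.1 to 49.2 in the other 4 (-0.87). Kpna7 (chromosome 5, 144983519 to 145084030), the importin of eggs and early embryos, measured 5.21 FPKM in A2 and 2.11 FPKM in C2, against 18.8 in A1, 9.46 in B1, 8.54 in B2 and 11.5 in C1, a difference of -1.51. C2 was lowest for Npm2 and Kpna7 and A2 for H1foo, and A2 and C2 were below all others in each.

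The maternal gene families differed in their medians. All 4 Oog genes, oocyte members of the Prame family, were below the other 4 libraries, with a median of -0.85 over Oog1 to Oog4. The most abundant of them, Oog3, measured 1116 FPKM in A2 and 1477 FPKM in C2, against 1722 in A1, 2576 in B1, 2490 in B2 and 2707 in C1. Of 11 Fbxw genes, oocyte F-box genes on chromosome 9, 6 were below and the median was -0.58. Of 7 Nlrp genes, 3 were below, with a median of -0.56. The described genes of the subcortical maternal complex, a protein lattice of the egg cortex, were Nlrp5 (-0.56), Ooep (-0.92) and Padi6 (-0.80). Each was lowest in A2, and each overlapped the other 4. Reads that map to several copies were counted in fractions, so single members of these families are uncertain.

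Not all maternal transcripts were lower. Dppa3 (Stella), which protects the maternal genome from demethylation and was the most abundant of the class, measured 8570 FPKM in A2 and 8941 FPKM in C2, against 8278 in A1, 8842 in B1, 5727 in B2 and 7663 in C1. The difference was 0.22, and it turned to -0.10 under quantile normalization. Gtsf1, a factor of the piRNA pathway, was 0.37 with 72.7 FPKM in A2 and 88.02 in C2, compared with 43.9 to 73.9 in the other 4. Zar1l, a relative of the mRNA-binding egg factor Zar1, was 0.27, with A2 the highest library (80.95 FPKM) and C2 (48.6 FPKM) inside the range of the other 4. Ddx4, the germ-cell helicase, was 0.17, with B2 (5.55 FPKM) far below the other 5 libraries (13.6 to 26.5 FPKM). Of the 19 listed genes under the filter, 7 were below the other 4 and 12 overlapped. These include Nobox, Khdc3, Tle6 and Ybx2 among the lower ones, at 1 to 13 reads in A2 and C2.

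Transcripts of the 2-cell programme were also lower in A2 and C2. Of the 45 genes listed, 42 passed the filter, and their median level was -0.64 in A2 and -0.54 in C2, against -0.003 in A1, 0.24 in B1, 0.74 in B2 and 0.22 in C1. B2 was the highest library for 30 of the 42 genes among the other 4, and A1 the lowest of the other 4 by median. The median difference was -1.01, or -0.90 relative to all genes. Of the 42 genes, 6, with Usp17l genes among them, averaged under 5 FPKM in A2 and C2 and passed only through the other 4. These 6 remain in the class medians and in the counts that follow, which therefore lean towards lower values. In 23 of the 42 (54.8%) A2 and C2 were below the other 4, in 0 above, and 19 overlapped. Without B2 the median was -0.84. As a share of reads, the listed genes took 0.826% (A2) and 0.853% (C2), while the other 4 libraries ran from 1.07% (A1) to 1.75% (B2).

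The eIF1A-like genes, a cluster on chromosome 12 whose products resemble translation initiation factor 1A, were below in all 5 named copies, with a median of -1.42. Gm5662 (chromosome 12, 88270640 to 88274500) measured 309.7 FPKM in A2 and 320.2 FPKM in C2, against 701 in A1, 1081 in B1, 1404 in B2 and 824 in C1, a difference of -1.62. Gm2016 measured 293 FPKM in A2 and 287 FPKM in C2, against 472 in A1, 937 in B1, 1104 in B2 and 738 in C1, a difference of -1.42. A2 and C2 were within 287 to 293 FPKM for Gm2016, and A1 was the nearest of the others. Gm5039 (-1.62) and Gm8300 (-1.43) were also below. The largest differences of the class belonged to Gm6763 and Gm4340, near-identical neighbours on chromosome 10 that share reads. Gm4340 (chromosome 10, 104194042 to 104196522) measured 20.9 FPKM in A2 and 11.04 FPKM in C2, against 79.97 in A1, 84.1 in B1, 148 in B2 and 79.5 in C1, a difference of -2.55. With 6 further copies of this group the median was -2.58, and 7 of 8 copies were below, which is 1 signal spread over copies rather than 8 findings.

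The Zscan4 genes, zinc-finger factors that mark the burst of 2-cell transcription, had their highest median level in B2. Zscan4d (chromosome 7, 11161374 to 11166159), the member most used in 2-cell embryos, measured 73.9 FPKM in A2 and 72.6 FPKM in C2, against 88.01 in A1, 153 in B1, 214 in B2 and 133 in C1, a difference of -0.92 with no overlap. Zscan4f measured 25.7 FPKM in A2 and 59.2 FPKM in C2, against 45.8 in A1, 60.6 in B1, 274 in B2 and 124 in C1, a difference of -1.32. For Zscan4f, C2 lay above A1 and close to B1, and B2 was the highest by far. Over the 8 Zscan4 genes described, the median level was -1.36 in A2, -0.52 in A1, -0.33 in C2, -0.23 in B1, 0.76 in C1 and 1.63 in B2. A2 was lowest, but C2 stood between A1 and B1, and only 2 of the 8 genes did not overlap. Zfp352, a retrotransposed zinc-finger gene of the 2-cell stage (chromosome 4, 90218820 to 90225702), measured 111 FPKM in A2 and 134 FPKM in C2, against 147 in A1, 241 in B1, 321 in B2 and 159 in C1, a difference of -0.75 without overlap.

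Of the 5 Usp17l deubiquitinase genes, 4 averaged under 5 FPKM in A2 and C2 and passed the filter only through the other 4 libraries, so no count or median is read from the family. Usp17lb, which passed on both sides, measured 353 FPKM in A2 and 389 FPKM in C2, against 461 in A1, 480.0 in B1, 794 in B2 and 505 in C1, a difference of -0.56. The 4 remaining Usp17l genes were at 1.91 to 5.68 FPKM in A2 and C2. Of the 5 Tdpoz genes, which encode paired TRAF and POZ domains, Tdpoz3 (-1.30) was below and the median was -0.31. The 5 Pramef genes had a median of -0.58 with Pramef6 (-1.41) below, and Tcstv1 and Tcstv3 had differences of -0.32 and -0.36 with overlap. Arg2, an arginase, was below the other 4 (-0.85). The 7 Obox homeobox genes had a median of -0.18, with 3 below the other 4. Obox6 measured 1377 FPKM in A2 and 1344 FPKM in C2, against 1006 in A1, 1072 in B1, 1345 in B2 and 1134 in C1, and Obox3 229 FPKM in A2 and 206 FPKM in C2, against 198 in A1, 303 in B1, 273 in B2 and 223 in C1. Their differences were 0.26 and -0.18, the latter turning to 0.02 under median scaling, as did the median of 7 Obox genes (-0.18 to 0.02). Sp110 was 0.11. Duxf3, the activator of the 2-cell programme, had at most 2 reads in any library and allows no statement.

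Promoters of the 2-cell genes are shown because 40 of the 42 members had a difference below 0 and some share letters near their start sites. Of the genes printed below, Zscan4f, Zscan4b and Zscan4c overlapped the other 4 libraries, and Usp17lb did not. RefSeq windows (GRCm38.p6, 250 bases before to 50 after the start) were found for 17 of the 42 genes, 18 windows in all. The letters TATAAA, searched on both strands, were in 8 of the 18 windows (44.4%). They belonged to Obox3, Usp17lb, Usp17lc, Usp17ld, Zscan4b, Zscan4c, Zscan4d and Zscan4f. Related copies are counted separately in this share and those below, so the windows are not independent promoters. TATAAA was in 13.6% of all 32851 mouse windows and 8.64% of the 741 windows of the genes below the other 4. CCAAT was in 83.3% against 37.4% of all windows, and TAATCC in 44.4% against 7.06%. The median was 2 CpG per window, against 7 for all mouse windows and 22 for those of all genes described. A match is a description of letters, not a binding site. The 60 bases before each annotated start, read 5′ to 3′ on the gene's strand with TATAAA in capitals, are:
Zscan4f, chr7:11397855-11397914, plus strand: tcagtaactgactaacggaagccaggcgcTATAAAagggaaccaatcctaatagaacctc
Zscan4b, chr7:10905051-10905110, minus strand: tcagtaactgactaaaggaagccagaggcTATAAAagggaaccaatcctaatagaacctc
Zscan4c, chr7:11005685-11005744, plus strand: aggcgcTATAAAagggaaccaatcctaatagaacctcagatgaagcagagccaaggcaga
Usp17lb, chr7:104842584-104842643, minus strand: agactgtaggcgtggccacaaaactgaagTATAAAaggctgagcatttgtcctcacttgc

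In Zscan4f, Zscan4b and Usp17lb the first capital lies at position -31 from the annotated start, and in Zscan4c at -54. Zscan4f and Usp17lb, with the same letters at the same distance, had differences of -1.32 and -0.56.

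**Figure D3:**
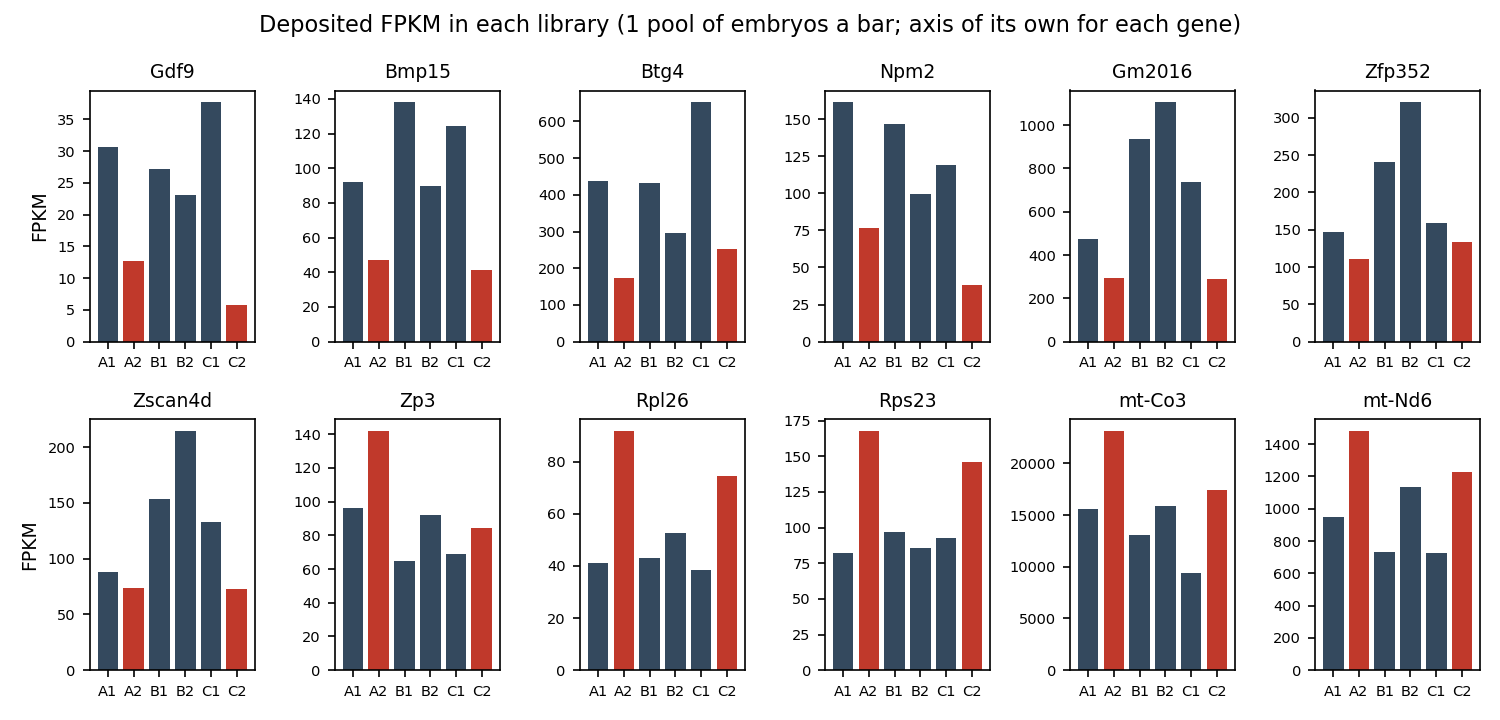
Deposited FPKM (vertical axis of its own for each gene, from 0) of 12 genes in the 6 libraries, 1 bar a pool; red bars are A2 and C2. Gdf9, Bmp15, Btg4, Npm2, Gm2016, Zfp352 and Zscan4d are lowest in A2 and C2, Rpl26, Rps23, mt-Co3 and mt-Nd6 are highest there, and for Zp3 only A2 is above the others.

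Mitochondrially encoded mRNAs were higher in A2 and C2. All 13 genes passed the filter, and their median level was 0.39 in A2 and 0.15 in C2, against 0.10 in A1, -0.24 in B1, 0.02 in B2 and -0.42 in C1. C2 and A1 lay close, and C1 was lowest. The median difference was 0.37, or 0.48 relative to all genes, and the difference was above 0 for all 13 as deposited, while after quantile normalization it was 0 for mt-Co3 and mt-Atp8 and -0.02 for mt-Atp6. In 5 of the 13 (38.5%) A2 and C2 were above all of the other 4, and 8 overlapped. The median was 0.30 without A2 and 0.50 without C2.

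Subunits of cytochrome oxidase, the last enzyme of the respiratory chain, had some of the larger differences. mt-Co3 (mitochondrial genome, 8607 to 9390) measured 23125 FPKM in A2 and 17370 FPKM in C2, against 15550 in A1, 13037 in B1, 15862 in B2 and 9370 in C1, a difference of 0.61. mt-Co2 was 0.45 and also did not overlap, and mt-Co1 was 0.46 with C2 (7957 FPKM) just under B2 (8042 FPKM). mt-Nd6, the complex I subunit encoded on the light strand, measured 1482 FPKM in A2 and 1228 FPKM in C2, against 946 in A1, 734 in B1, 1137 in B2 and 723 in C1, a difference of 0.63. mt-Cytb, the complex III subunit, measured 28509 FPKM in A2 and 24864 FPKM in C2, against 24211 in A1, 16249 in B1, 22055 in B2 and 17206 in C1 (0.44). Among the other complex I subunits, mt-Nd5 (0.37) was above without overlap, while mt-Nd2 (0.18), mt-Nd4l (0.21) and mt-Nd3 (0.23) overlapped. The ATP synthase subunits mt-Atp6 (0.37) and mt-Atp8 (0.34) overlapped, with A1 above C2. Quantile normalization gives the highest ranks the same value in each library, and there the class median was 0.13. Counted in reads, these 13 mRNAs made up 13.1% of A2 and 10.8% of C2, while the other 4 ran from 7.18% (C1) to 10.5% (A1). Of the 68 nuclear genes of the respiratory chain described, 6 were above and 2 below, with a median of 0.09.

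Ribosomal protein mRNAs were higher in A2 and C2. All 85 listed genes passed the filter. Their median level was 0.28 in A2 and 0.20 in C2, against -0.17 in A1, -0.08 in B1, -0.21 in B2 and -0.01 in C1. In 46 of the 85 (54.1%) A2 and C2 were above all of the other 4, in 0 below, and 39 overlapped. The median difference was 0.36, or 0.46 relative to all genes, and 77 of 85 differences were above 0. The 8 others were between -0.29 (Rpl4) and -0.02 (Rpl10l), and 6 of these turned above 0 under median scaling. The median was 0.32 without A2 and 0.40 without C2.

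Rpl26 (chromosome 11, 68901583 to 68906989), a large-subunit protein, measured 91.8 FPKM in A2 and 74.5 FPKM in C2, against 41.2 in A1, 43.02 in B1, 52.8 in B2 and 38.3 in C1, a difference of 0.91. Rps23 (chromosome 13, 90922958 to 90924950), a protein of the decoding centre of the small subunit, measured 168 FPKM in A2 and 146 FPKM in C2, against 81.97 in A1, 96.7 in B1, 85.8 in B2 and 92.96 in C1, a difference of 0.80. The other 4 libraries lay close together for both genes, and A2 was above C2. Rps26 (chromosome 10, 128624534 to 128626747) measured 299 FPKM in A2 and 284 FPKM in C2, against 218 in A1, 156 in B1, 134 in B2 and 226 in C1 (0.70), with more spread among the others. Rpl12 (0.80), Rps19 (0.74) and Rps20 (0.71) were also above, Rpl12 at only 11.9 and 11.1 FPKM. Abundant members that overlapped included Rplp0, the stalk protein, at 1018 FPKM in A2 and 871 FPKM in C2, against 860.2 in A1, 798 in B1, 934 in B2 and 939 in C1 (0.10). Rpl4 was the largest exception, at 182 FPKM in A2 and 149 FPKM in C2, against 156 in A1, 199 in B1, 232 in B2 and 231 in C1, with A1 and C2 lowest. Variants that are paralogs of the usual subunits lay on both sides of 0, each with overlap: Rpl3l (-0.16), Rpl7l1 (-0.09), Rpl10l (-0.02), Rps27l (0.15), Rpl39l (0.20) and Rpl22l1 (0.40). Ribosomal protein genes have many processed pseudogenes. Processed pseudogenes of all kinds took 5.94% of the reads of A2 and 6.06% of those of C2, while the other 4 had 5.20% to 5.66%, so counts of single members are uncertain.

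Start sites of ribosomal protein genes are shown because their mRNAs are known to begin with an unbroken run of pyrimidines, the feature of the mRNAs whose translation follows growth signals. A run of at least 8 bases that are each C or T, overlapping positions -5 to +10 of the annotated start on the gene's strand, was in 27 of 76 windows found for 64 of the 85 genes (35.5%), against 11.3% of all mouse windows. The genes with a run (27) had a median difference of 0.35 with 16 above the other 4, and the 37 without one had 0.34 with 20 above. The 50 bases around the start, 5′ to 3′ on the gene's strand with the run in capitals, are:
Rps26, chr10:128626482-128626531, minus strand: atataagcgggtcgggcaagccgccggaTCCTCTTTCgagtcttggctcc
Rpl38, chr11:114668555-114668604, plus strand: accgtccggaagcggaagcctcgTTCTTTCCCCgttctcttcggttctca
Rps9, chr7:3704016-3704065, plus strand: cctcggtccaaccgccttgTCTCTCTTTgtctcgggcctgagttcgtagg
Rps24, chr14:24490653-24490702, plus strand: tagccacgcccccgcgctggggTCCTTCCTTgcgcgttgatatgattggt

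Rps26 was 0.70, Rpl38 0.64, Rps9 0.51 and Rps24 0.50, and each was above the other 4. Rpl38, a small protein of the large subunit, measured 180.4 FPKM in A2 and 126 FPKM in C2, against 107 in A1, 93.1 in B1, 83.4 in B2 and 105 in C1. Rps9 measured 143 FPKM in A2 and 112 in C2, compared with 81.7 to 101 in the other 4, and Rps24 65.5 FPKM in A2 and 58.3 in C2, compared with 40.8 to 46.9 in the other 4.

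Differences within pairs show how far each class differed between libraries of the same label. A2 minus A1 and C2 minus C1 share no library. The maternal median was -1.02 for A2 minus A1 (lower in A2 for 40 of 44 genes) and -0.85 for C2 minus C1 (39 of 44). For B2 minus B1, the pair with no library set apart, it was -0.37 (36 of 44), so maternal RNA was lower in the library numbered 2 of all 3 pairs. The 2-cell programme differed in direction: -0.67 in pair A, -0.91 in pair C, and 0.45 in pair B, where 33 of 42 genes were higher in B2. Mitochondrial mRNAs were higher in the library numbered 2 of each pair, by 0.35, 0.28 and 0.56 in A, B and C. Ribosomal protein mRNAs were 0.48 in A, 0.20 in C and -0.13 in B.

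**Figure D4:**
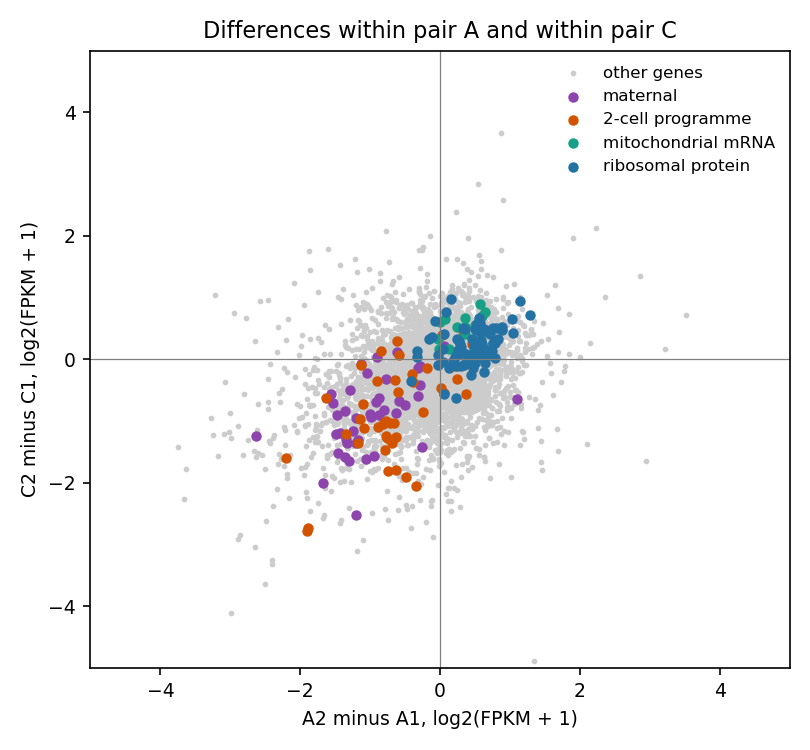
Difference of A2 minus A1 (horizontal) against C2 minus C1 (vertical) in log2(FPKM + 1), 1 point a gene, coloured by class (grey, all other genes); the axes cross at 0. Maternal and 2-cell genes lie mostly in the lower left, with medians of -1.02 and -0.85 for maternal genes, and ribosomal protein and mitochondrial genes mostly in the upper right.

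A2 and C2 were not alike in every class. Maternal genes were lower in A2 than in C2 by a median of -0.29, with A2 the lowest of the 6 libraries for 28 of 44 genes and C2 for 8. All 13 mitochondrial mRNAs were higher in A2 than in C2, by a median of 0.26. The 2-cell programme (0.03) and the ribosomal protein mRNAs (0.09) were nearly level between them. The 25 genes of DNA replication had a median level of -0.22 in A2, against -0.06 in A1, and of 0.21 in C2 and in C1 alike.

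Genes of later preimplantation stages had a median of -0.46 over the 11 of 35 that passed the filter, with 3 below and 1 above. Within pairs their median was -0.03 for A2 minus A1 and -0.27 for C2 minus C1, with 5 genes higher and 6 lower in each. Of the 24 listed genes under the filter, 5 were below and 19 overlapped. Cldn6, a tight junction protein of the forming outer layer, measured 5.35 FPKM in A2 and 7.32 FPKM in C2, against 20.6 in A1, 16.8 in B1, 23.9 in B2 and 20.1 in C1 (-1.54), and Upp1, a uridine phosphorylase, 10.9 FPKM in A2 and 4.50 FPKM in C2, against 11.2 in A1, 27.8 in B1, 29.5 in B2 and 21.6 in C1 (-1.45). Klf17, an early embryonic transcription factor, was below at 16.2 FPKM in A2 and 20.7 in C2, compared with 24.7 to 53.2 in the other 4, and Dppa4, a chromatin factor, was above (0.21). Histone genes had a median of -0.30 over 18, with Hist1h2bc (-2.02) and Hist1h1a (-1.62) below and H2afj (0.38) above. Most replication-dependent histone mRNAs have no poly(A) tail, and Hist1h1a had 1 read in C2. Hist1h2bc and Hist1h1a averaged under 5 FPKM in A2 and C2 and passed the filter only through the other 4.

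Genes of ribosome assembly, apart from the ribosomal proteins, had 9 of 50 above and 3 below, with a median of 0.09. Gnl3 (nucleostemin), a nucleolar GTPase, measured 101 FPKM in A2 and 98.7 FPKM in C2, against 57.5 in A1, 53.4 in B1, 62.98 in B2 and 49.6 in C1, a difference of 0.83 with the other 4 close together. Npm1, the nucleolar chaperone, measured 547 FPKM in A2 and 608 FPKM in C2, against 373 in A1, 423 in B1, 389 in B2 and 359 in C1 (0.58). Rrp9, a component of the snoRNP that processes rRNA, went the other way at 13.1 FPKM in A2 and 9.40 in C2, compared with 14.1 to 35.4 in the other 4 (-0.93). Among translation initiation factors 6 of 46 were above and 5 below (median 0.02). Eif2s2, the eIF2 beta subunit, was above at 180.2 FPKM in A2 and 151 in C2, compared with 82.6 to 133 in the other 4. The cap-binding relative Eif4e3 was below at 4.98 FPKM in A2 and 3.29 in C2, compared with 10.5 to 25.8 in the other 4 (-1.69). Eif4e3 averaged under 5 FPKM in A2 and C2 and passed the filter only through the other 4. Proteasome genes had 5 of 40 above and 3 below (median 0.07), with Psma1, Psma3, Psma4, Psmb2 and Psmd14 above. The largest absolute differences of the list were downward, in Psmg2 (-1.55) and Psmd10 (-0.83). Both were below, at 2 to 10 reads in A2 and C2. Splicing genes had 8 of 54 above and 5 below (median 0.04), with the Sm proteins Snrpd1 (0.53) and Snrpe (0.65) above and Srsf2 (-0.64) below. The largest absolute differences of this list were also downward, in Snrpn (-1.10), which overlapped, and Prpf6 (-0.73), which was below. Prpf6 averaged under 5 FPKM in A2 and C2 and passed the filter only through the other 4.

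Mitochondrial ribosome genes (57, median -0.02, 3 above and 2 below), genes of G2 and mitosis (33, 0.07, 1 and 2), of the S phase (25, -0.03, 2 and 4) and of stress, p53 and apoptosis (15, 0.01, 1 and 0) had medians near 0 as deposited. Relative to all genes these medians were 0.08, 0.17, 0.08 and 0.11 in the same order. Under median scaling they were 0.16, 0.26, 0.16 and 0.19. In the stress list, Gadd45a (0.80) and Txnip (0.67) were the highest and Ddit3, a factor of the unfolded protein response, the lowest (-0.62), each with overlap. Txnip averaged under 5 FPKM in the other 4 and passed the filter only through A2 and C2. Zfp zinc-finger genes (70, -0.15, 3 and 8) and solute carriers (51, -0.10, 2 and 7) followed the median of all genes, and both medians turned above 0 under median scaling and quantile normalization.

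The 8 genes with the widest gap below the nearest other library included 4 of the near-identical copies on chromosome 10 described above (Gm6763, Gm8764, Gm20765 and Gm21304), of which the 2-cell list holds Gm6763. Tmem171, a membrane protein gene (chromosome 13, 98686235 to 98694834), had 0 reads in A2 and in C2, which at 3 reads allows up to 1.70 and 2.09 FPKM. It measured 3.996 to 16.2 FPKM in the other 4. Mfap2 (chromosome 4, 141010418 to 141015984), which encodes a microfibril protein of the extracellular matrix, measured 12.6 FPKM in A2 and 6.37 FPKM in C2, against 71.01 in A1, 78.02 in B1, 53.9 in B2 and 72.2 in C1, a difference of -2.79 based on 17 and 7 reads in A2 and C2. Samt2, on chromosome X, measured 1.45 FPKM in A2 and 0.991 in C2, compared with 9.52 to 18.99 in the other 4, from fewer than 2 reads in each of A2 and C2. Tmem171 and Samt2 passed the filter only through the other 4. Among genes singled out after their values were seen, Pkd2l2, a polycystin family gene, measured 95.3 FPKM in A2 and 88.1 FPKM in C2, against 428 in A1, 404 in B1, 290.3 in B2 and 423 in C1, a difference of -2.05. Nxf2, an X-linked mRNA export factor, measured 7.31 FPKM in A2 and 6.87 in C2, compared with 26.04 to 70.5 in the other 4. Mapk3, which encodes the kinase ERK1, measured 3.57 FPKM in A2 and 3.91 in C2, compared with 13.4 to 24.5 in the other 4. Mapk3 also averaged under 5 FPKM in A2 and C2 and passed the filter only through the other 4. Gna14, a G protein subunit, measured 5.82 FPKM in A2 and 5.86 in C2, compared with 21.3 to 33.1 in the other 4.

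In the other direction, the gaps were narrower, a comparison limited by the filter, which more lower than higher genes passed through 1 side alone. Cstf2t (chromosome 19, 31082841 to 31086590), a polyadenylation factor, measured 60.6 FPKM in A2 and 57.02 FPKM in C2, against 37.3 in A1, 35.2 in B1, 32.6 in B2 and 30.9 in C1, a difference of 0.78. Arpc3, a subunit of the Arp2/3 complex that nucleates branched actin filaments, measured 8.74 FPKM in A2 and 8.78 in C2, compared with 2.86 to 5.43 in the other 4, and Krtcap2, a subunit of the oligosaccharyltransferase, 9.40 FPKM in A2 and 9.78 in C2, compared with 2.20 to 5.91 in the other 4. Krt28, a keratin gene, measured 10.5 FPKM in A2 and 12.9 in C2, compared with 1.95 to 6.06 in the other 4. Arpc3, Krtcap2 and Krt28 averaged under 5 FPKM in the other 4 and passed the filter only through A2 and C2. Gm21028, which had the widest gap upward, is short and rested on 8.5 and 7.5 reads in A2 and C2. Abundant genes outside the rule, named after their values were seen, were Spc25, a kinetochore component, at 198 FPKM in A2 and 234 FPKM in C2, against 118 in A1, 139 in B1, 139 in B2 and 137 in C1, and Ypel5 at 515 FPKM in A2 and 600.1 in C2, compared with 291 to 381 in the other 4.

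The leading members of the remaining lists were split. In the S phase list, Rfc5, a clamp loader subunit, was below. It measured 2.97 FPKM in A2 and 2.54 in C2, compared with 6.18 to 8.47 in the other 4. Mcm3, a subunit of the replicative helicase, overlapped (-1.05, with 0.954 FPKM in A2 alone low and 4.99 FPKM in C2). Rfc5 and Mcm3 averaged under 5 FPKM in A2 and C2 and passed the filter only through the other 4. Gins1, another helicase component, was above (66.8 FPKM in A2 and 73.6 in C2, compared with 25.95 to 56.97 in the other 4). Of the mitotic genes, the checkpoint kinase Bub1b (-0.55) and the cyclin Ccnb2 (-0.48) were below, Ccnb2 by a narrow gap at 28.04 FPKM in A2 and 27.4 in C2, compared with 28.4 to 49.6 in the other 4. Bop1, a factor of large-subunit assembly, was -0.99 with overlap, since B1 (4.95 FPKM) was also low. In the mitochondrial ribosome, Mrpl54 was above (40.1 FPKM in A2 and 45.4 in C2, compared with 15.3 to 37.02 in the other 4), and Mrpl43 (0.91) overlapped because B2 exceeded A2.

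Single nuclear genes of the respiratory chain differed more than their list. Cox7b2, a testis-type cytochrome oxidase subunit, measured 11.6 FPKM in A2 and 10.2 FPKM in C2. It was at 1.84 in A1, 1.46 in B1, 1.54 in B2 and 8.30 in C1, a difference of 1.72. C1 lay near A2 and C2 and the other 3 were low. Cox7b2 rested on 7 and 5 reads in A2 and C2 and on 1 to 7 in the other 4. It averaged under 5 FPKM in the other 4 and passed the filter only through A2 and C2. Ndufc2 of complex I was above at 20.2 FPKM in A2 and 24.9 in C2, compared with 5.24 to 18.8 in the other 4. Ndufa10 of the same complex was below at 1.88 FPKM in A2 and 4.63 in C2, compared with 6.41 to 9.55 in the other 4. Ndufa10 averaged under 5 FPKM in A2 and C2 and passed the filter only through the other 4. Eif2s3y, a Y-linked subunit of eIF2, had 0 FPKM in B2, 27.1 in A2 and 16.4 in C2, with A1, B1 and C1 at 8.41 to 17.2, so its difference of 1.59 rested on B2 and A2. Zfp809, a silencer of retroviral sequences, measured 5.14 FPKM in A2 and 16.4 FPKM in C2, against 75.5 in A1, 25.1 in B1, 4.81 in B2 and 58.5 in C1, and B2 was as low as A2. Slc10a6, a carrier of sulfated steroids, was below at 6.32 FPKM in A2 and 8.30 in C2, compared with 16.2 to 30.1 in the other 4, and Slc25a32, a mitochondrial folate carrier, was 0.66 with overlap.

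The filter touched the classes unequally. Of the genes described, 460 had a mean under 5 FPKM in A2 and C2 and passed through the other 4, and 58 had the reverse. The 460 included 0 of the mitochondrial and ribosomal protein genes. At the limit, Zswim1 and Flad1 lay just inside, at means of 5.0003 and 5.0025 FPKM, and Jade3 and Pdxdc1 just outside, at 4.9997 and 4.9983 FPKM.

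The labelled pairs gave the one test that does not compare A2 and C2 with the rest. A moderated F-test across pairs A, B and C (limma on log2(FPKM + 1), 13443 genes averaging 1 FPKM or more, Benjamini-Hochberg adjustment) called 0 genes, with a smallest adjusted p of 0.287, and 481 genes (3.58%) had an unadjusted p below 0.05. Unadjusted, 0 of 44 maternal, 4 of 42 genes of the 2-cell programme (Zfp352, Tdpoz2, Zscan4d and Gm2016), 0 of 13 mitochondrial and 2 of 85 ribosomal protein genes (Rps26 and Rps15) were below 0.05, each with an adjusted p of 1. The libraries of a pair are not stated to come from separate matings or days, so these p-values measure the spread between the pools alone, and that spread includes the difference of A2 from A1 and of C2 from C1. With A2 and C2 left out, limma also called 0 genes, with 571 unadjusted, where the spread comes from pair B alone.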

How the data were processed

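RNA of pools of 5 embryos was sequenced after 13 cycles of cDNA amplification, per the labels' protocols, which also record ERCC spike-in RNA. The authors deposited FPKM values for 53023 genes in 6 libraries, per the file headers without spike-ins, and 0 spike-in genes are listed. The submitters' processing notes name mm10, Trimmomatic, Trim Galore, cutadapt, STAR and featureCounts. For the annotation, strand handling and versions, nothing is stated (not given in the sources used here). Gene length times FPKM gave whole reads (tolerance 0.001) for 55.6% to 57.9% of values, because reads shared by genes were counted in parts. Depth and floors (3 reads) cover counting error only.

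Values were taken as log2(FPKM + 1), which understates changes of low genes. Libraries are named by pair and replicate number. The libraries, gene lists and naming rule were chosen with earlier results of these data known. The rule named 8 genes per direction by gap, 6 members per class, 2 per other list, and the largest opposite member. Lists were described by medians and by counts of members that do not overlap between A2 and C2 and the other 4. The pairs were compared by a moderated F-test with limma 3.58.1 in R 4.3.3 (variance trend, Benjamini-Hochberg, threshold 0.05), tested on simulated data first. Promoter windows are from RefSeq, GRCm38.p6, matched by symbol. Alternatives were a pseudocount of 0.1, filters of 1 and 20 FPKM, median scaling, quantile normalization, rescaling all genes to the nuclear reads, and leaving out each library.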

Additional observations from a re-analysis of the deposited data

How the results depend on the processing

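Under 12 alternatives the maternal median stayed between -1.01 and -0.64, the 2-cell median between -1.05 and -0.79, the ribosomal protein median between 0.31 and 0.55 and the mitochondrial median between 0.13 and 0.57. On principal component 1, whichever of A2 and C2 was present stayed apart from the rest under all 14 settings tried, by 38.4% to 83.5% of the range. Only C2 was present for the 38.4% (without A2), and only A2 for the 67.5% (without C2). This component chose A2 and C2, so these gaps are a description. Counts moved more. With a filter of 1 FPKM, 1537 genes were below the other 4, and with 20 FPKM 281 were above and 321 below, since fewer or more genes were described. Median scaling gave 844 above and 486 below, a ribosomal protein median of 0.5509, and medians of 0.07718 for all genes, 0.02048 for Zfp genes and 0.07719 for solute carriers. Quantile normalization gave 688 above and 489 below, a mitochondrial median of 0.1296, and medians of 0.04368 for all genes, 0.06349 for Zfp genes and 0.07537 for solute carriers, which were at 0.04649 with a filter of 20 FPKM. Leaving out 1 library gave 533 to 903 genes above and 895 to 1504 below, because fewer libraries must be passed. The highest counts came without A2 (903 above, 1293 below) and without C2 (778 above, 1504 below). The solute carrier median then ran from -0.1776 to 0.01477, and the proteasome median from -0.01267 (without C2) to 0.1632.

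The test across pairs called 0 genes in all 15 alternatives, with smallest adjusted p from 0.0542 to 1. With the replicate number as a block, limma called 0 genes, the smallest adjusted p was 0.428, and 644 genes had an unadjusted p below 0.05. The main test did not use the replicate numbers to pair the libraries. Across genes, the differences of replicate 2 minus replicate 1 had r = 0.33 between pairs A and C, 0.19 between A and B and -0.05 between B and C. A2 and C2 enter these correlations and were chosen on their values, and whether the numbers mark a batch was not tested. Depth limits the low genes, since 1 read in a gene of 2 kb was worth 0.321 to 0.551 FPKM, and 2 libraries that were chosen on their values give no measure of error for the contrast.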

Other observations

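The separated genes were spread unequally over chromosomes. Of the 789 genes below the other 4 libraries, 53 (6.72%) lay on chromosome X and 78 (9.89%) on chromosome 4, against 4.25% and 7.35% of all genes described. Of the 427 genes above, 4 (0.94%) lay on X and 49 (11.5%) on chromosome 11, against 7.93% of all genes described. Among X-linked genes below were Bmp15, Samt2, Nxf2, Prr32 and Ribc1. Samt2, Prr32 and Ribc1 averaged under 5 FPKM in A2 and C2 and passed the filter only through the other 4. Reads on chromosome Y numbered 389 in A2 and 318 in C2, within the 41.4 to 411 of the other 4, where B2 was lowest.

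By gene length, the median difference was -0.13, -0.12 and -0.08 in the 1614 shortest, middle and longest genes. The part of gene length in the split was not tested. The maternal median was -0.87 among the 24 short genes, -0.83 among the 15 of middle length and -0.72 among the 5 long ones. The ribosomal protein median was 0.34 among 57 short and 0.42 among 24 middle genes. Promoter windows of genes above and below the other 4, leaving out ribosomal protein genes above and maternal and 2-cell genes below, were close to those of all genes described: TATAAA was in 5.41% of windows above and 7.95% below, against 7.44%, and CCAAT in 38.1% and 44.3%, against 42.1%. Maternal genes had a median of 4 CpG per window, against 21 for ribosomal protein genes, 22 for all genes described and 7 for all mouse windows.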
